A study of Mus musculus with 12 samples.

Results

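Mammals carry several genes for the same glycolytic step, and the adult liver uses forms that differ from those of most other tissues. The genes described here are 8 members of that system: the glucose transporters Slc2a2 (GLUT2, the liver form) and Slc2a1 (GLUT1), the hexokinases Hk1, Hk2 and Hk3, the aldolase Aldoa, and the pyruvate kinases Pklr (the liver and red cell form) and Pkm (the form of muscle, of fetal tissues and of most proliferating cells). They were chosen by name, as liver forms and their counterparts of other or fetal tissues. Earlier results of these data were known when they were chosen. They are 8 of the 19938 genes that had a probe set of their own on the arrays. Expression was measured in the livers of 12 C57Bl/6J mice that received an adenovirus in a vein at 10 weeks of age. The 6 control mice received a virus encoding a scrambled short hairpin RNA (sh scramble), and the other 6 mice received one encoding a short hairpin against Grb14 (sh Grb14), an adapter protein that binds the insulin receptor and dampens its signal. Livers were taken 7 days later from fed animals, and each array held the RNA of 1 mouse. Both groups carried virus. Livers without virus were not analysed here, so a change is always relative to virus with the scrambled hairpin. One hairpin against Grb14 is named in the labels, and the cells in which it was active are not.

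In the adult liver glucose enters the hepatocyte through GLUT2, which works in proportion to the glucose supply of the portal blood. Most other tissues, the fetal liver and many proliferating cells take up glucose through the high-affinity GLUT1 and phosphorylate it with hexokinases that saturate at low glucose. Pyruvate kinase closes glycolysis, and its liver form Pklr is induced by carbohydrate feeding through the factor ChREBP, whereas Pkm yields the splice forms PKM1 and PKM2. Of the 8 genes, Pklr and Slc2a2 are the 2 liver forms, and they stood against the other 6.

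The sh Grb14 livers had less of both liver forms and more of all 6 other genes. Pklr fell 3.43-fold and Slc2a2 fell 1.99-fold, while Hk3 rose 3.73-fold, Pkm 3.25-fold, Aldoa 2.37-fold, Hk2 2.25-fold, Slc2a1 1.90-fold and Hk1 1.12-fold (1.86-fold by its other probe set). All 8 passed the test across genes (limma, Benjamini-Hochberg adjusted p under 0.05), and in all 8 the 6 mice of one group lay apart from the 6 of the other. That count has to be read against a liver in which 65.3% of all genes passed, 25.8% as higher and 39.5% as lower, and in which the groups of 41.2% of all genes did not overlap. Sizes separate the members better than calls do. Of all genes, 2.34% changed at least as much as Hk3 in either direction and 2.84% as much as Pklr. The shares were 3.21% for Pkm and 9.99% for Slc2a1. For Hk1 the share was 61.8% by the probe set taken and 10.7% by its other probe set. These are whole livers, in which fewer cells of a type and less RNA per cell cannot be told apart. The exact permutation test over mice gave p = 0.00216, the smallest possible with 6 against 6, for each of the 8 genes. Any gene whose groups do not overlap gets this value, so it restates that separation.

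**Figure D1:**
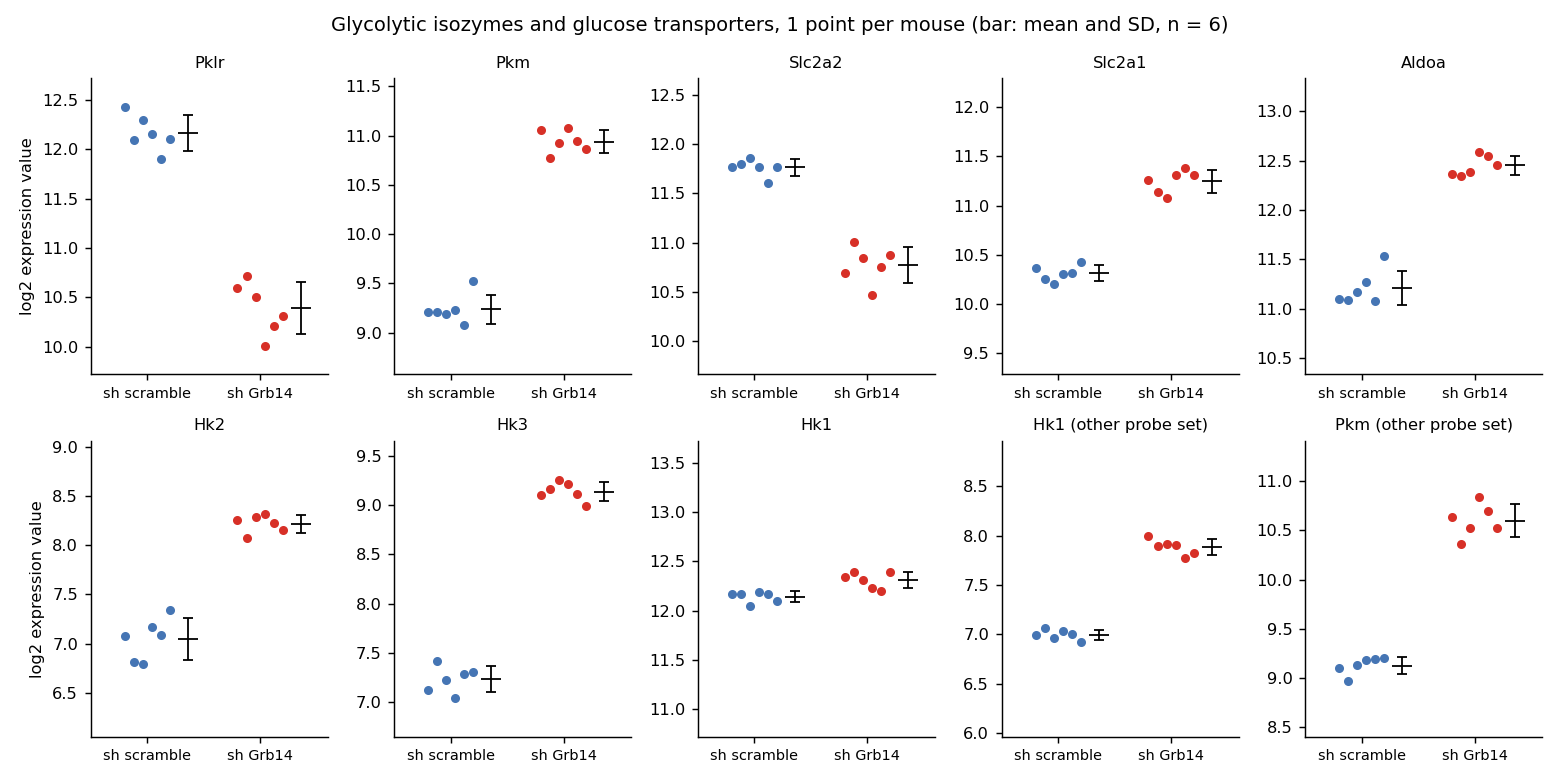
Log2 expression value (vertical axis) of each of the 8 genes, and of the other probe sets of Hk1 and Pkm, in the 6 sh scramble (blue) and 6 sh Grb14 mice (red), with bars for mean and SD. Pklr and Slc2a2 sit lower in every sh Grb14 mouse than in any sh scramble mouse and the other genes sit higher, with a gap of 1.57 for Hk3 and of 0.02 for the Hk1 probe set of the highest signal.

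**Figure D2:**
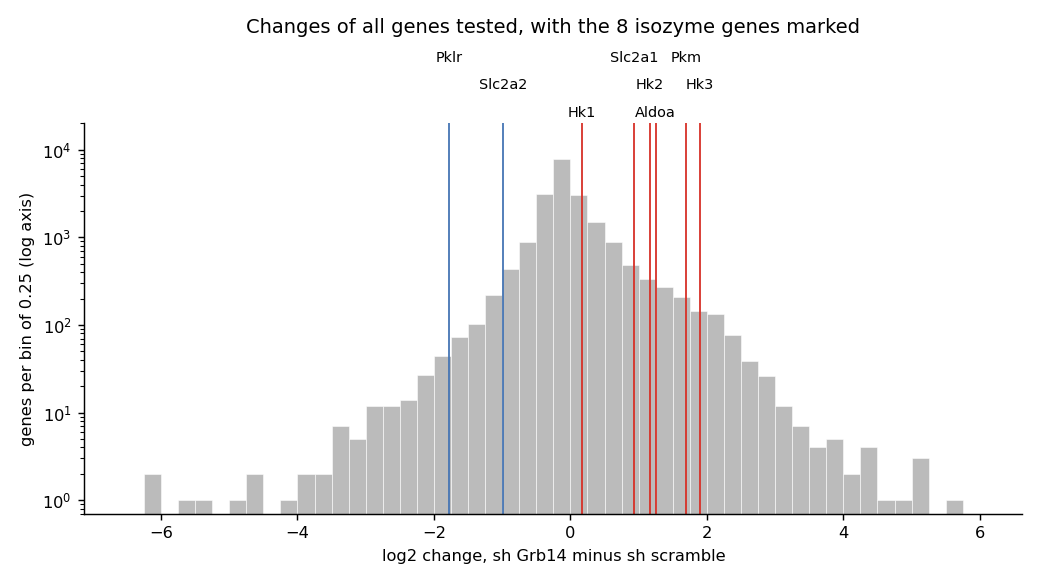
Histogram of the log2 change, sh Grb14 minus sh scramble, of all 19938 genes in bins of 0.25, with the number of genes on a log axis and a line at each of the 8 genes. The lines of Pklr and Hk3 lie in the outer parts of the distribution. That of Hk1, drawn for its probe set of the highest signal, lies in the centre. The median change of all genes is -0.10.

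The hairpin's own target was lower in the livers labelled for it. Grb14 lay between 10.08 and 10.25 on the deposited log2 scale in the sh scramble livers and between 8.02 and 8.44 in the sh Grb14 livers, which left 26.7% of the sh scramble level (log2 change -1.91, SE 0.059, n = 6 and 6, limma adjusted p = 7.99e-14). The array medians lay between 7.06 and 7.17. Of the 7 hepatocyte markers measured, Alb (albumin) and Trf (transferrin) changed by 0.04 and 0.01 log2 units without passing the test, 4 fell and 1 rose, and the mean of the list went from 13.57 to 13.65 in the sh scramble livers to 13.30 to 13.42 in the sh Grb14 livers. One control library stood apart. In sh scramble mouse 6 the skeletal muscle genes Acta1, Ckm and Myl1 had log2 values of 10.15, 10.06 and 9.61, against at most 7.51, 7.58 and 5.37 in the 5 other sh scramble mice. The same mouse had the highest sh scramble value of Hk2, Pkm, Aldoa and Slc2a1, all of which rise in the sh Grb14 group. Their changes without it were 1.23, 1.76, 1.31 and 0.95, against 1.17, 1.70, 1.25 and 0.93 with it. It lay within the range of the other sh scramble mice for Hk1, Hk3, Pklr and Slc2a2.

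The pyruvate kinases, 1 of the 2 pairs of a liver form and its counterpart compared here, moved apart further than the transporters. Pklr makes the liver enzyme that converts phosphoenolpyruvate to pyruvate. Its log2 values were 11.90 at the lowest, 12.14 at the median and 12.43 at the highest in the sh scramble livers, and 10.01, 10.41 and 10.72 in the sh Grb14 livers. The highest sh Grb14 mouse was 1.18 below the lowest sh scramble mouse. The means were 12.17 ± 0.183 and 10.39 ± 0.259 (SD, n = 6 each), a log2 change of -1.78 (SE 0.106, limma adjusted p = 2.19e-10), and the sh Grb14 livers kept 29.1% of the sh scramble level. Within the sh Grb14 group mouse 4 was the lowest and mouse 2 the highest, and the SD of 0.259 was the largest of any of the 8 genes in either group.

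Pkm moved the other way by nearly the same amount. Its log2 values were 9.08 at the lowest, 9.21 at the median and 9.52 at the highest in the sh scramble livers, and 10.77, 10.93 and 11.08 in the sh Grb14 livers. The gap between the groups was 1.25, and the mouse nearest to it from below was sh scramble mouse 6, the library with muscle transcripts. The mean rose from 9.24 ± 0.148 to 10.94 ± 0.116 (SD, n = 6 each), a log2 change of 1.70 (SE 0.068, limma adjusted p = 1.66e-12). A second probe set of Pkm rose from 9.13 ± 0.089 to 10.60 ± 0.168, by 1.47 (SE 0.069, limma adjusted p = 1.17e-11), also with no overlap between groups. The arrays gave gene-level values, so these changes do not say which splice form of Pkm was present.

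The promoter sequences of both genes are shown because they differ in kind. Each is the 250 bases before an annotated start, from RefSeq on mouse build GRCm38.p6, written 5′ to 3′ on the gene's strand. Capitals mark letters found by a search of both strands for the carbohydrate response element that ChREBP binds (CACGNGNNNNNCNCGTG), the CCAAT box (CCAAT), the TATA box (TATAAA), the GC box (GGGCGG) and the core of the hypoxia response element (ACGTG). No pair of marked stretches overlaps. The Pklr window is chr3:89136373-89136622 on the plus strand, and the Pkm window is chr9:59656326-59656575 on the plus strand.
Pklr: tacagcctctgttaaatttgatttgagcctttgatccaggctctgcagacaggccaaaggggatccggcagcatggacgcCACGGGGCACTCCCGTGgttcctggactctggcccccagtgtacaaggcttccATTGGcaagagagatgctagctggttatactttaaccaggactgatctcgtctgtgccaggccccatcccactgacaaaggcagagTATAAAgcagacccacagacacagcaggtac
Pkm: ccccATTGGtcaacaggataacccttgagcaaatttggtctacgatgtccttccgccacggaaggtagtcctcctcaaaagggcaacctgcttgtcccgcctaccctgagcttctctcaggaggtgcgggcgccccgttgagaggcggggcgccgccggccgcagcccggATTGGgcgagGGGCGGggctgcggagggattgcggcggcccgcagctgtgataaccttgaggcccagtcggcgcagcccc
The Pklr window before the downstream of 2 annotated starts held 1 carbohydrate response element, 1 CCAAT box on the opposite strand and 1 TATA box. That element occurred in 13 of all 32851 windows of the same length in the RefSeq table (0.0396%), the TATA box in 12.4% and the CCAAT box in 33.8%. The Pkm window shown, before the upstream of its 2 annotated starts, had 1 GC box, a motif of 32.7% of all windows, and 2 CCAAT boxes, and it held 21 CpG dinucleotides against 5 in that of Pklr. The window before the other Pkm start had 18 CpG dinucleotides and 1 hypoxia response element core, with no GC box and no CCAAT box. That before the other Pklr start had 3 and none of the motifs. The quartiles over all windows were 2, 6 and 16. A match in these letters is a description of the sequence, and binding was not measured.

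The pyruvate kinases were also set against each other on the same array. Since they moved in opposite directions, their difference adds the 2 changes by construction. The log2 difference Pkm minus Pklr, expressed relative to the sh scramble mean, ran from -0.30 to 0.34 in the sh scramble mice. The sh Grb14 mice had 3.40, 2.98, 3.36, 3.99, 3.66 and 3.47. Their mean was 3.48 ± 0.336 (SD, n = 6), an 11.1-fold shift of the ratio towards Pkm. The same difference for the transporters, Slc2a1 minus Slc2a2, ran from -0.21 to 0.17 in the sh scramble mice and was 2.02, 1.58, 1.69, 2.28, 2.08 and 1.88 in the sh Grb14 mice, with a mean of 1.92 ± 0.261, a 3.79-fold shift. Mouse 4 had the widest shift and mouse 2 the narrowest of the sh Grb14 group in both pairs. These are descriptions with no test. Arrays do not give the levels of different genes on 1 scale, so only the shift, not which form was the more abundant, can be read from them.

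**Figure D3:**
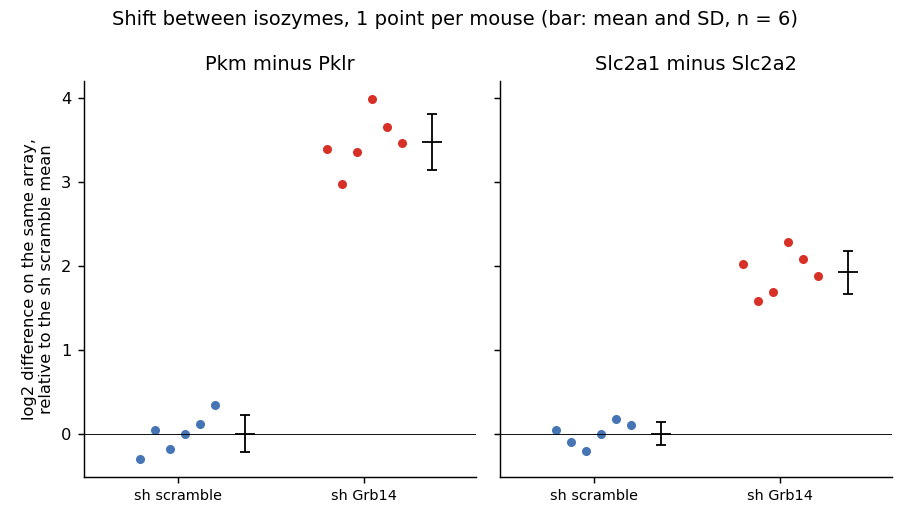
Log2 difference between the genes of a pair on the same array, relative to the sh scramble mean, for Pkm minus Pklr and Slc2a1 minus Slc2a2, 1 point per mouse (blue, sh scramble; red, sh Grb14) with bars for mean and SD, n = 6. The sh Grb14 mice lie between 2.98 and 3.99 for the kinases and between 1.58 and 2.28 for the transporters, and the sh scramble mice lie around 0.

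The glucose transporters of the liver and of other tissues also moved in opposite directions. Slc2a2 makes GLUT2, which carries glucose into and out of hepatocytes. Its log2 values were 11.60 at the lowest, 11.77 at the median and 11.86 at the highest in the sh scramble livers, and 10.47, 10.80 and 11.01 in the sh Grb14 livers. The groups were 0.59 apart, and sh scramble mouse 5 was alone at the bottom of its group. The mean fell from 11.76 ± 0.088 to 10.77 ± 0.185 (SD, n = 6 each), by 0.99 log2 units (SE 0.072, limma adjusted p = 2.56e-09), to 50.3% of the sh scramble level. Slc2a1 makes GLUT1, the transporter of the blood-brain barrier and of most dividing cells. Its log2 values were 10.20, 10.32 and 10.43 (lowest, median, highest) in the sh scramble livers and 11.08, 11.28 and 11.38 in the sh Grb14 livers, with 0.65 between the groups. The mean rose from 10.32 ± 0.080 to 11.25 ± 0.112, by 0.93 (SE 0.053, limma adjusted p = 1.20e-10).

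The promoter windows of the transporters are shown beside those of the kinases because here too the window of the liver form held fewer CpG dinucleotides and no GC box; the other motifs did not follow that pattern. Capitals mark the same motifs. The Slc2a2 window is chr3:28697653-28697902 on the plus strand and the Slc2a1 window is chr4:119108495-119108744 on the plus strand.
Slc2a2: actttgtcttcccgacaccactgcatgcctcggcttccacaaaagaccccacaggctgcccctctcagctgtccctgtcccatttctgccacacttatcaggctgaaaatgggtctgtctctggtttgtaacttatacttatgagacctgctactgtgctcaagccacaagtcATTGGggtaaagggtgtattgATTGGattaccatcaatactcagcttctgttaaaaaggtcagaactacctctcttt
Slc2a1: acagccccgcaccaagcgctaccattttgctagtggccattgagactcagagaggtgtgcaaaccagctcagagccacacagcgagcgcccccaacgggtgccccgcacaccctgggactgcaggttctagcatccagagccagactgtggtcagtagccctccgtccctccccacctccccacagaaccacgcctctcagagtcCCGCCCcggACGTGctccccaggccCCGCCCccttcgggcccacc
Slc2a2 had 2 CpG dinucleotides and 2 CCAAT boxes, both on the opposite strand. Slc2a1 had 13 CpG dinucleotides, 2 GC boxes on the opposite strand and 1 hypoxia response element core, a string that 16.6% of all windows held. Over the starts of the other members the number of CpG dinucleotides was 25 for Hk2, 6 for Hk3, 1 and 14 for Hk1, 21 and 18 for Pkm, 3 and 5 for Pklr, and 0, 21 and 19 for Aldoa. The windows of both liver forms therefore held at most 5, but so did 1 window each of Hk1 and Aldoa, whose genes rose. A GC box was also absent from the Hk3 window, from both Hk1 windows and from 1 window each of Aldoa and Pkm.

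Of the 9 other glucose transporters fixed as a list, 2 rose, 4 fell and 3 did not pass the test, with a median log2 change of -0.01 against -0.10 over all genes. Slc2a6, a transporter of lysosomes in leukocytes, rose by 1.09 (SE 0.070), and Slc2a3 (GLUT3, a high-affinity form of neurons and leukocytes) rose by 0.63 (SE 0.067). Slc2a5, the fructose transporter, fell by 0.84 (SE 0.057), and Slc2a9, which carries urate, fell by 0.70 (SE 0.059). Slc2a4, the insulin-responsive GLUT4 of muscle and fat, fell by 0.41 (SE 0.097) with overlapping groups, and its highest sh scramble value was that of mouse 6. Without that mouse the fall of Slc2a4 was 0.36 (SE 0.091, limma adjusted p = 0.0035).

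All 3 hexokinases rose, and the size of the Hk1 change depended on its probe set. Hk2, the hexokinase of muscle, fat and many growing cells, had log2 values of 6.79 at the lowest, 7.09 at the median and 7.34 at the highest in the sh scramble livers, and 8.07, 8.23 and 8.32 in the sh Grb14 livers. The groups were 0.73 apart, with sh scramble mouse 6 again highest in its group. The mean rose from 7.05 ± 0.212 to 8.22 ± 0.093 (SD, n = 6 each), by 1.17 (SE 0.086, limma adjusted p = 3.25e-09). Hk3 is the hexokinase of myeloid blood cells. Its log2 values were 7.04, 7.26 and 7.42 (lowest, median, highest) in the sh scramble livers and 8.99, 9.14 and 9.26 in the sh Grb14 livers, and the gap of 1.57 was the widest of the 8 genes. The mean rose from 7.24 ± 0.137 to 9.14 ± 0.094, by 1.90 (SE 0.067, limma adjusted p = 3.64e-13).

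The Hk2 window, chr6:82774455-82774704 on the minus strand, is shown as the one richest in CpG dinucleotides and in marked motifs among the members.
Hk2: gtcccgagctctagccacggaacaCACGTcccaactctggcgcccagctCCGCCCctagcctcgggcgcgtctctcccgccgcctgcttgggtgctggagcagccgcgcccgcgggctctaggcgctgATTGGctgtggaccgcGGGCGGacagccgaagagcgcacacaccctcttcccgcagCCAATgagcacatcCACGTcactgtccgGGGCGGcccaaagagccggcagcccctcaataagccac
It held 2 hypoxia response element cores, 3 GC boxes and 2 CCAAT boxes, counted over both strands.

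Hk1, the hexokinase of brain and red cells, was represented by 2 probe sets that differed in size of change. The one with the higher signal, which the rule took, had log2 values of 12.05 at the lowest, 12.17 at the median and 12.19 at the highest in the sh scramble livers, and 12.20, 12.33 and 12.39 in the sh Grb14 livers. The groups touched to within 0.02, and the change was 0.17 (SE 0.040, limma adjusted p = 0.00141). The platform annotation links this probe set to Hk1 through a single sequence record. That record is also listed by 16 other probe sets, and all 16 also list Rpl17, a ribosomal protein gene. Those 16 had levels of 10.97 to 12.54 (median 11.86) and changes of 0.11 to 0.15, so the level and change of the chosen probe set lay among or next to theirs, and which transcript it measured was not tested. The other Hk1 probe set, with 8 sequence records, had log2 values of 6.92, 7.00 and 7.06 (lowest, median, highest) in the sh scramble livers and 7.77, 7.91 and 8.0 in the sh Grb14 livers. Its groups were 0.71 apart and its mean rose from 6.99 ± 0.048 to 7.89 ± 0.079 (SD, n = 6 each), by 0.89 (SE 0.053, limma adjusted p = 1.86e-10), a change that 10.7% of all genes matched or passed.

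Of the 4 other genes of hexose phosphorylation measured, 1 was past the test as higher and 2 as lower, and the median change was -0.29. Hkdc1, a hexokinase-like gene, rose by 1.51 (SE 0.117), from 6.47 to 7.98. Khk, the ketohexokinase that commits fructose to the liver, fell by 0.88 (SE 0.069), and Gckr, a regulatory protein of the liver, fell by 0.60 (SE 0.089).

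Aldoa makes the aldolase of muscle and of most tissues outside the liver. Its log2 values were 11.08 at the lowest, 11.13 at the median and 11.53 at the highest in the sh scramble livers, and 12.35, 12.43 and 12.59 in the sh Grb14 livers. The groups were 0.83 apart, and the sh scramble value nearest to the gap was once more that of mouse 6. The mean rose from 11.20 ± 0.173 to 12.45 ± 0.097 (SD, n = 6 each), by 1.25 (SE 0.069, limma adjusted p = 8.53e-11). Not every aldolase of other tissues rose. Aldoc, the brain form, fell by 1.99 (SE 0.061, limma adjusted p = 7.31e-14), from 9.54 to 7.55, which is 3.98-fold lower and larger than the change of any of the 8 genes.

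The remaining steps of glycolysis did not move as a block. Of 7 genes of the phosphofructokinase step 3 rose, 3 fell and 1 did not pass. Pfkp, the platelet-type phosphofructokinase, rose 3.72-fold, by 1.89 (SE 0.078), from 6.67 to 8.56. Pfkl, the liver type, changed by -0.03 (SE 0.042, limma adjusted p = 0.527), and Pfkm, the muscle type, fell by 0.42 (SE 0.075). The fall of Pfkm was 0.37 (SE 0.069) without sh scramble mouse 6, the highest of its group. Among the bifunctional enzymes that set fructose 2,6-bisphosphate, Pfkfb4 rose by 0.74 (SE 0.065). Pfkfb3 rose by 0.39 (SE 0.131) with overlapping groups. Among 8 other glycolytic enzymes 1 rose and 3 fell, the other 4 missed the threshold, and the median was -0.07. Besides Aldoc these were Pgam1 (phosphoglycerate mutase), which rose by 0.29 (SE 0.030), Pgk1 (phosphoglycerate kinase), which fell by 0.14 (SE 0.034), and Eno2 (the neuronal enolase), which fell by 0.17 (SE 0.063). Without sh scramble mouse 6 the count was 2 higher and 2 lower: Eno2 no longer passed, and Eno3, the muscle enolase, went from 0.01 (SE 0.225) to 0.28 (SE 0.069, limma adjusted p = 0.00268). Eno3 is named after its values were seen, because the mouse with muscle transcripts had 9.59 against at most 8.0 in the other sh scramble mice.

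**Figure D4:**
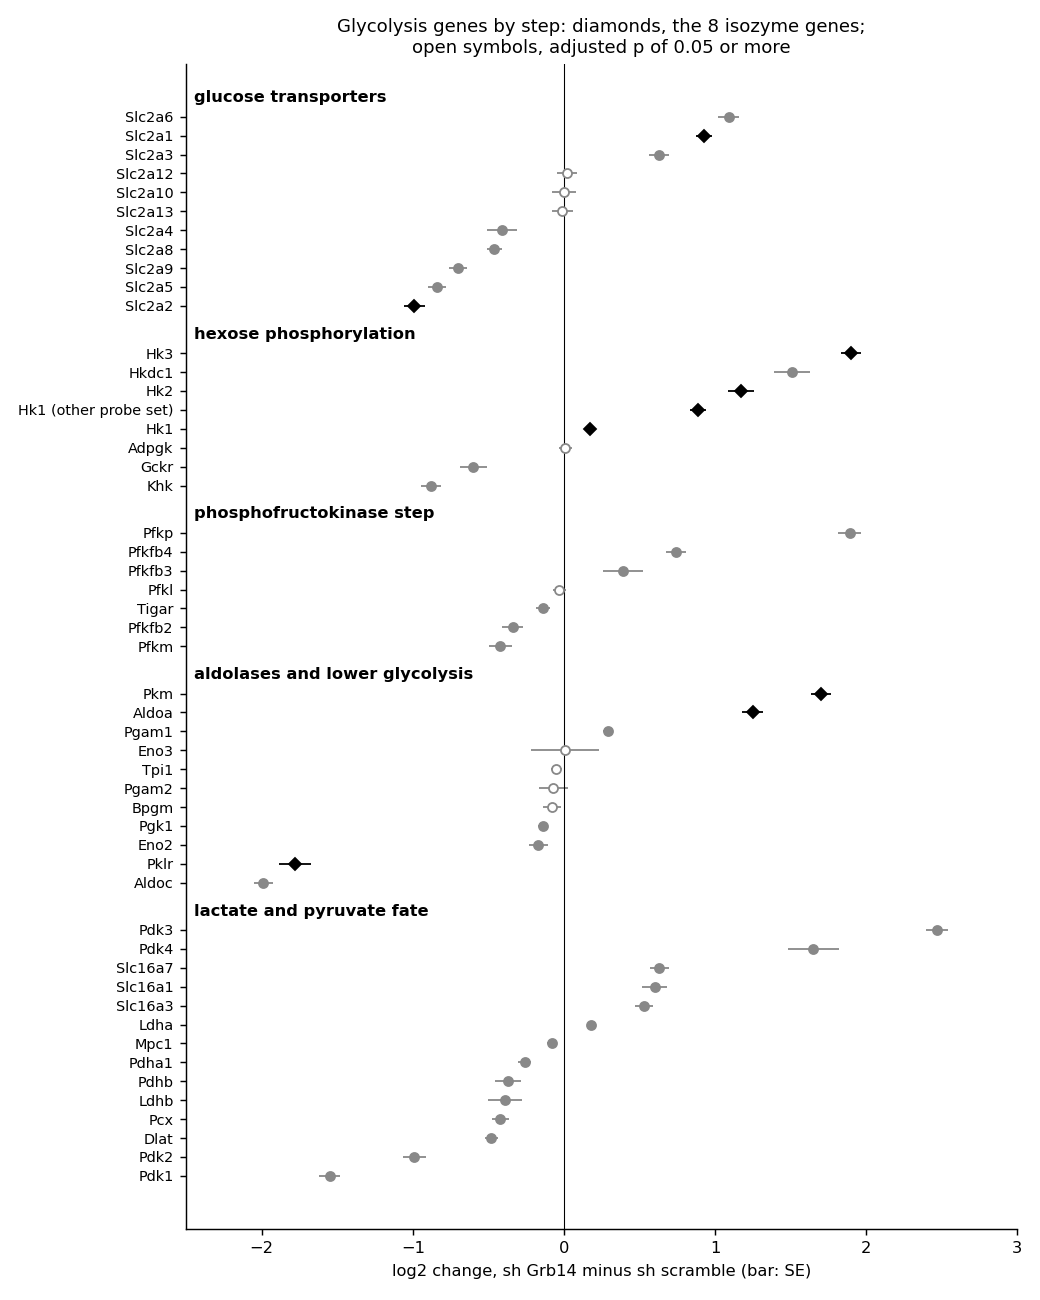
Log2 change, sh Grb14 minus sh scramble, with its SE (bars) for the 8 genes (diamonds) and the other measured genes of 5 pathway lists (circles) by step of glucose use, with open symbols for genes that did not pass the test. Within each of the first 4 steps some genes lie right of 0 and some left of it, from -1.99 for Aldoc to 1.90 for Hk3, and in the pyruvate group Pdk3 reaches 2.47.

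Downstream of pyruvate, 6 of 14 genes rose and 8 fell, with a median of -0.17. The lactate dehydrogenase subunit Ldha, which favours lactate formation, rose by 0.18 (SE 0.027), and Ldhb fell by 0.39 (SE 0.115). The fall of Ldhb was 0.27 (SE 0.074) without sh scramble mouse 6, which had a value of 7.75 against at most 7.11 in the others. The 4 pyruvate dehydrogenase kinases, which switch off the entry of pyruvate into the citric acid cycle, split between themselves. Pdk3 rose 5.55-fold, by 2.47 (SE 0.072), and Pdk4, a gene of fasting, rose by 1.65 (SE 0.170). Pdk1 fell by 1.55 (SE 0.068) and Pdk2, an abundant liver form, by 0.99 (SE 0.077).

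Of 13 genes that regulate these isozymes 5 rose and 7 fell, and the median was -0.37. Mlxipl, which encodes ChREBP, fell by 0.94 (SE 0.075, limma adjusted p = 8.76e-09), and Srebf1, the insulin-induced regulator of lipid and glycolytic genes, fell by 1.02 (SE 0.076). The liver factor Foxa1 fell by 1.07 (SE 0.091). Myc, a factor that induces Slc2a1, Hk2 and the splicing of PKM2, rose by 1.17 (SE 0.298), but its groups overlapped, with sh scramble values from 7.95 to 10.37. Ptbp1, a splicing factor of PKM2, rose by 0.49 (SE 0.031), and Hif1a, the hypoxia-inducible factor, rose by 0.58 (SE 0.038); both are named after their values were seen. The other splicing factors measured on the list are also named after their values were seen. Srsf3 rose by 0.57 (SE 0.037). Hnrnpa2b1, a splicing factor of PKM2, changed by 0.03 (SE 0.045, limma adjusted p = 0.519) and did not pass. Over all 6 pathway lists, which hold no member, 18 of the 55 genes measured rose and 27 fell. Both shares were above those of all genes, of which 25.8% rose and 39.5% fell. Calls were more frequent at higher signal, however. In the fit restricted to genes above the median level 7869 passed, 3818 of them as higher. Whether the signal level of the listed genes accounts for their larger shares was not tested. The median was -0.08, close to that of all genes.

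Markers of several other cell types moved with the group. All 8 measured markers of monocytes and recruited macrophages rose, and the mean of the list went from 7.79 to 8.08 in the sh scramble livers to 9.63 to 10.02 in the sh Grb14 livers. Of these, Itgax (CD11c) rose by 2.41 and Cd68 by 1.94. Among resident Kupffer cell markers 1 of 5 rose (Cd5l, by 1.79), while Clec4f changed by -0.06 and Timd4 by -0.05 without passing. Neutrophil markers rose in 6 of 9 cases, with list means of 6.47 to 6.66 and 7.34 to 7.80. All 7 markers of proliferating cells rose, from list means of 7.17 to 7.46 to means of 9.56 to 9.94, with Mki67 up by 2.95. Of the 4 fetal liver genes, Afp (alpha-fetoprotein) rose by 5.21, Gpc3 by 4.49 and Igf2 by 1.88, and Dlk1 changed by -0.24 (limma adjusted p = 0.0680). The part of these cells in the rise of Hk2, Hk3, Pkm, Aldoa and Slc2a1 was not tested.

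Other lists, by markers higher and lower of those measured, had 4 and 1 of 5 for T cells, 3 and 0 of 5 for NK and cytotoxic cells, 4 and 0 of 4 for B and plasma cells, and 1 and 1 of 3 for erythroid cells. Stellate cells and fibroblasts had 6 and 2 of 8, sinusoidal endothelial cells 2 and 4 of 6, cholangiocytes 1 and 0 of 5, and adipocytes 1 and 3 of 4. For muscle the count was 0 and 1 of 6. Without sh scramble mouse 6 it was 1 and 2 for muscle, 4 and 0 for NK and cytotoxic cells, 2 and 1 for erythroid cells and 6 and 1 for neutrophils, and the counts of the other marker lists were the same.

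**Figure D5:**
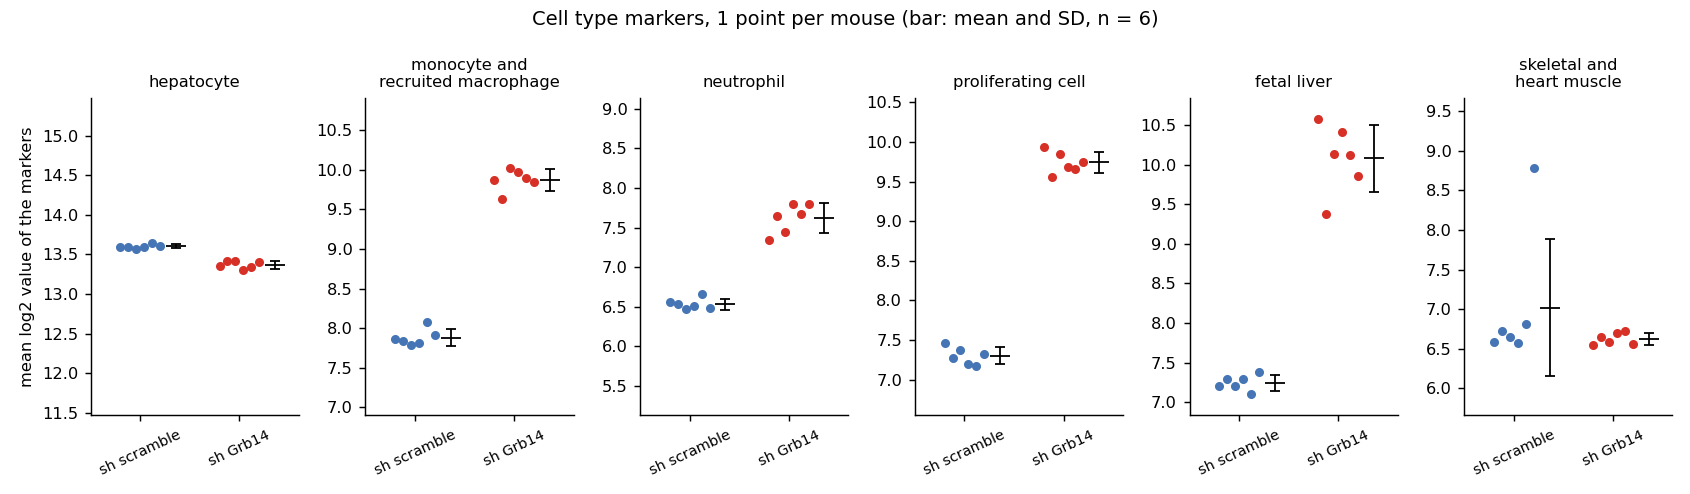
Mean log2 value of the markers of 6 lists in each mouse (blue, sh scramble; red, sh Grb14), with bars for mean and SD, n = 6. The macrophage, neutrophil, proliferation and fetal liver lists are higher in all sh Grb14 mice, the hepatocyte list is lower in all of them, and 1 sh scramble mouse stands at 8.78 on the muscle list.

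The genes whose profile over the 12 arrays lay nearest to each member were found by the root mean square difference between log2 values centred on the gene's own mean. Nearest to Hk3 were Rnase6 (0.098 log2 units) and Sash3 (0.100), both known from leukocytes. Hk2 was followed by Zeb2 (0.088) and Unc93b1 (0.104), Pkm by Myo9a (0.094) and Cblb (0.095), and Aldoa by the tubulin Tubb5 (0.088) and Atpif1 (0.101). For Slc2a1 they were the tropomyosin Tpm3 (0.076) and Bin1 (0.084). The liver forms had Lss, an enzyme of cholesterol synthesis (0.126), and Cyp2u1 (0.127) beside Pklr, and the complement protease-like C1rl (0.068) and 1110032A03Rik (0.068) beside Slc2a2. The chosen Hk1 probe set had Ddx24 (0.048) and Nab1 (0.049), and the other one had Grn, progranulin (0.042), and Dpysl2 (0.054). These distances over 12 arrays are mostly set by the change between the groups, and likeness in them is a description.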

How the data were processed

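The authors deposited log2 expression values for 35556 probe sets on 12 arrays (per the labels, total RNA from liver, 100 ng labelled for Affymetrix arrays). RMA and Partek are named in the submitters' processing notes, without versions; the sources used here do not give their settings or the probe coordinates. The number of arrays limits the precision. Probe sets were named from the platform annotation: 21789 had 1 symbol, 1621 several and 12146 none. Each gene was taken from the probe set with 1 symbol and the highest mean over the 12 arrays (19938 genes). Groups came from the treatment labels, and sample titles name separate mice. The test was limma 3.58.1 (R 4.3.3; lmFit, eBayes with an intensity trend) of sh Grb14 minus sh scramble over all 19938 genes, with Benjamini-Hochberg adjusted p under 0.05, and it was tested on simulated data. Single genes were also tested by an exact two-sided permutation test over mice.

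Named genes were the 8 members, their isozyme counterparts, the up to 4 genes of largest change past the test in each of 6 pathway lists, Grb14, and the 2 nearest profiles to each member. The 15 marker lists describe other cell types. The members and lists were chosen with earlier results of these data known. Of 65 pathway genes, 55 were analysed here, and some items are not reported here. Motifs were searched in RefSeq windows; all 8 members matched by Entrez ID. No protein sequence was used here.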

Additional observations from a re-analysis of the deposited data

Results flagged for a closer look

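Within groups of 6 mice, the highest or lowest mouse was compared with its nearest neighbour by Dixon's criterion. It picked out 8 of 104 groups tested, where chance alone picks about 1 in 20. Among the isozymes, Pkm in sh scramble mouse 6 was at 9.52, the highest of its group, with the next mouse at 9.23, and Slc2a2 in sh scramble mouse 5 was at 11.60, the lowest, with the next at 11.77. In sh scramble mouse 6 the value of Ldhb was 7.75 (next 7.11), the mean of the muscle markers was 8.78 (next 6.81), and the mean of the stellate cell and fibroblast markers was 9.24 (next 8.93). That mouse accounts for 4 of the 8. The stellate cell list includes Des, also a muscle transcript, at 9.88 in that mouse and at most 7.94 in the other sh scramble mice. Slc2a3 stood at 7.07 in sh scramble mouse 1 (next 6.84) and Pfkfb3 at 8.91 in sh scramble mouse 3 (next 8.14). The mean of the adipocyte markers was 7.48 in sh scramble mouse 4 (next 6.83). All 8 lay in the sh scramble group, and all but the value of Slc2a2 were the highest of their group.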

How the results depend on the processing

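The 8 isozyme genes kept their direction and stayed past the threshold under every alternative in which they had a value: other scaling, no intensity trend, array weights, filters on low values, the mean of a gene's probe sets, all probe sets in the fit, and each mouse left out. With mice left out, the log2 changes ranged from 0.15 to 0.19 for Hk1, 1.12 to 1.23 for Hk2, 1.67 to 1.76 for Pkm and -1.84 to -1.70 for Pklr. The size of the Hk1 change rested on the probe set: 0.17 for the one taken, 0.53 for the mean of both and 0.89 for the other, the last chosen after seeing the data. The number of genes past the test was 7869 among genes above the median level, where fewer genes were tested, and 11877 to 13497 with a mouse left out, against 13012. The other glucose transporters past the test numbered 3 among genes above the median level, against 6. That filter removed Slc2a3, Slc2a4 and Slc2a5, which had no value under it. Pfkfb3 was 0.29 (limma adjusted p = 0.0584) after quantile normalisation. Ldhb was -0.28 (limma adjusted p = 0.0499) for the mean of its probe sets, against -0.39 for the one taken. Eno2 lost its call, at -0.16 to -0.14, when any of 6 single mice was left out. Nab1 was 0.12 (limma adjusted p = 0.0695) with arrays centred. Where no construction is named, the cause was not tested. No paired analysis was possible because the labels give no replicate numbers shared between groups. Of the 6 isozyme pairs fixed, 4 were not run. Hk2 had no value under the filter at the median. The mean levels of Hk2 and Hk3 were 7.63 and 8.19, against a median of 7.64 over all genes. Whether low signal compressed the change of any gene was not tested.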
